A study of Mus musculus with 10 samples.

Results

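The genes described here are those that the deposited annotation places in the KEGG pathway map of protein processing in the endoplasmic reticulum (ER), 313 of the 51911 genes in the table. Of these, 165 were placed in 7 steps by what their proteins are known to do. The other 148 are mostly pseudogenes and unnamed copies of members (143 are not annotated as protein coding), and 102 of them had no count in any library. A filter on low counts left 158 members for testing, 154 with a step and 4 without. They were measured by RNA sequencing of C57BL/6 mouse liver after 8 weeks of a high-fat diet, with 5 wild type samples and 5 samples of the genotype Cpt1a L-/-, read here as loss of Cpt1a in the liver. Both genotypes received the diet, no sample on another diet was analysed here, and neither the promoter that drives the deletion nor the age is given in the sources used here. The comparison asks how ER gene expression in fat-fed liver differs when the rate-setting enzyme of mitochondrial fatty acid uptake is missing.

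Secreted and membrane proteins enter the ER through the Sec61 channel, receive sugar chains and disulfide bonds, and fold with the help of chaperones. Folded cargo leaves in COPII vesicles, while misfolded chains are returned to the cytosol and degraded by the proteasome. Sensors in the ER membrane, PERK (Eif2ak3), IRE1 (Ern1) and ATF6, adjust chaperone genes to the folding load, and the hepatocyte, which secretes most plasma proteins, keeps a large ER.

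Total counts lay between 20599078 and 26955922 per library. Cpt1a was at 430 ± 85.8 CPM with the gene intact and 80.0 ± 9.19 CPM after its deletion (SD, 5 libraries a group, counts scaled to library size and by TMM), so the libraries matched their labels. Hepatocyte markers were high, with a mean of 34922 TPM for Alb (TPM also divides by transcript length). The libraries also divided across genotype. On the first principal component of all tested genes (34.2% of the variance) replicates 1 and 2 of the wild type and 2, 3 and 5 of the knockout lay below 0, and the other 5 libraries above. In bulk tissue, fewer cells of a type and less RNA per cell cannot be told apart.

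No member passed the test over all genes. With edgeR's quasi-likelihood test and a Benjamini-Hochberg adjusted p under 0.05, 0 of 158 members were called, against 18 of 13619 genes (0.132%). DESeq2 called 4 members, Derl3, Pdia3, Pdia6 and Ssr3, all lower, against 101 genes (0.636%). The members nevertheless leaned to lower levels in the knockout. At an unadjusted edgeR p under 0.05, 17 of 158 members differed in either direction (10.8%), against 4.82% of all genes. Of these members 16 were lower (10.1% of the 158) and 1 was higher, where 2.25% of all tested genes were lower and 2.56% higher. The CPM of the 5 wild type and 5 knockout libraries did not overlap for 5 members that were lower (3.16%, against 0.529% of all genes) and for 1 that was higher (0.521%). A negative log2 fold change was found for 118 of 158 members, 74.7%, against 55.3% of all genes. The lower count rested partly on single libraries. Among the 154 members with a step it was 16 in full (10.4%). It was 8 when wild type replicate 5 was left out (5.19%, against 2.23% of all genes) and 10 when knockout replicate 3 was (6.49%, against 1.61%). It was 29 without wild type replicates 1 and 2 (18.8%), where the share over all genes also went up, to 6.42%.

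The lean was unequal between steps. The median log2 fold change was -0.31 over 13 translocon members, -0.26 over 18 members of ER folding and -0.13 over 21 members of the glycan step. It was -0.04 over 12 export members, -0.05 over 19 cytosolic chaperones, -0.02 over 28 stress sensors and effectors and -0.04 over 43 members of degradation. The median of all genes was -0.02. Of the 16 members lower at an unadjusted p under 0.05, 4 were in the translocon, 7 in folding, 2 in the glycan step, 1 in export and 2 in degradation. The first 3 medians stayed negative under every scaling. The other 4 turned positive (0.05 to 0.07) when counts were scaled by library size alone, which moved the median of all genes to 0.07. The difference between steps was not tested.

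**Figure D1:**
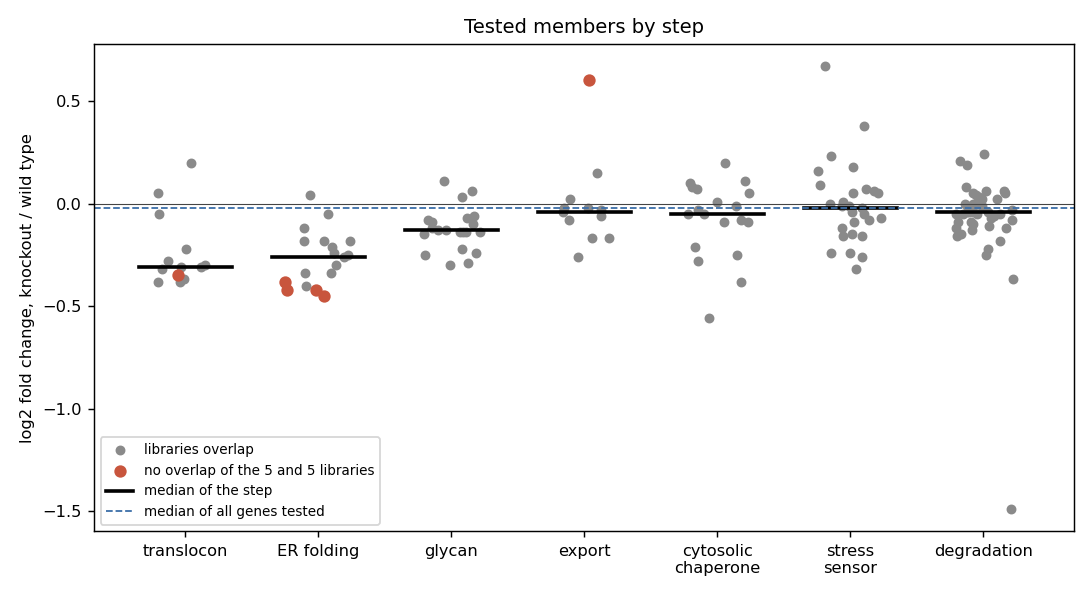
Log2 fold change (knockout against wild type, y axis) of each of the 154 tested members, by step. Red points are the 6 members whose 5 and 5 libraries did not overlap, black bars are step medians and the dashed line is the median of all genes tested (-0.02). The translocon (-0.31) and ER folding (-0.26) medians lie lowest, and the medians of export, cytosolic chaperones, stress sensors and degradation lie near 0, where their sign depends on the scaling.

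In the translocon, 11 of 13 members had a negative log2 fold change (84.6%, against 55.3% of all genes). Ssr3, a subunit of the translocon-associated protein complex that sits beside the Sec61 channel, was at 233, 226, 208, 216 and 229 CPM in wild type replicates 1 to 5 and at 178, 194, 160, 176 and 166 CPM in knockout replicates 1 to 5. Every knockout library lay below every wild type library. This gave a log2 fold change of -0.35 ± 0.10 (SE) with an edgeR adjusted p of 0.422. The Ssr1 subunit of the same complex was at 83.6 ± 10.9 and 67.4 ± 3.83 CPM (SD, n = 5 each), or -0.31 ± 0.11 as a log2 fold change. Only knockout replicate 2, at 72.7 CPM, exceeded the lowest wild type library, at 71.0 CPM. Ssr2 and Ssr4, also of this complex, had log2 fold changes of -0.05 and -0.22 ± 0.25. Ssr4 overlapped between the groups, and its value became 0.28 without wild type replicates 1 and 2. Sec61a1, the channel itself, was at 138, 122, 123, 122 and 140 CPM across the wild type against 109, 85.1, 101, 106 and 125 CPM across the knockout (-0.30 ± 0.12). Knockout replicate 5 alone reached the wild type range.

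Tram1, a membrane protein that helps nascent chains into the bilayer, had a log2 fold change of -0.38 ± 0.14. Its 2 highest libraries were wild type replicates 1 and 2, at 115 and 124 CPM, against 80.4 to 87.3 CPM in the other wild type and 66.8 to 81.8 CPM in the knockout libraries. The small channel subunit Sec61b showed the same split more strongly, with 88.0 and 82.6 CPM in wild type replicates 1 and 2, 43.5 to 47.4 CPM in wild type replicates 3 to 5 and 38.9 to 56.4 CPM in the knockout. Its log2 fold change of -0.38 ± 0.22 became 0.06 without those 2 libraries. Sec63, which recruits the chaperone BiP to the channel, went the other way within wild type, with 65.0 and 81.5 CPM in replicates 1 and 2 and 112 to 129 CPM in replicates 3 to 5 (log2 fold change -0.32 ± 0.22). The median of the translocon step was -0.14 without wild type replicates 1 and 2. The exceptions in direction were Sec61a2, a second channel isoform (0.20 ± 0.23), and Ckap4, a protein of ER sheets (0.05 ± 0.21). Reads of Sec61g may be shared with its unnamed copy Gm10177, which was listed at 108 TPM against 11.9 TPM for Sec61g, so neither value is certain.

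ER folding held 4 of the 5 lower members without overlap. Pdia6, a protein disulfide isomerase, was at 299, 255, 262, 269 and 292 CPM across the wild type against 221, 197, 199, 194 and 219 CPM across the knockout. The highest knockout library lay well under the lowest wild type library. The log2 fold change was -0.42 ± 0.10 (SE), a level 1.34-fold lower (edgeR adjusted p = 0.233, unadjusted p = 0.0010). Pdia3, the isomerase that acts on glycoproteins held by calnexin and calreticulin, was at 349, 367, 358, 387 and 411 CPM across the wild type against 323, 294, 260, 265 and 261 CPM across the knockout. These ranges also lay apart, with a log2 fold change of -0.42 ± 0.11 (edgeR adjusted p = 0.327).

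Calr, which encodes the lectin chaperone calreticulin, was at 774, 612, 623, 736 and 801 CPM across the wild type against 579, 430, 492, 503 and 599 CPM in the knockout. The gap between the groups was narrow, 612 against 599 CPM, and the log2 fold change was -0.45 ± 0.13 (edgeR adjusted p = 0.492). Ero1lb, an oxidase that regenerates the isomerases, was nearly constant in wild type at 57.5 ± 1.55 CPM and spread wider in the knockout at 44.3 ± 6.73 CPM (SD, n = 5 each). Its highest knockout library was replicate 5, at 53.7 CPM, and its lowest wild type library was at 56.2 CPM (log2 fold change -0.38 ± 0.11, edgeR adjusted p = 0.492). The sister oxidase Ero1l was at -0.12 ± 0.11 on the log2 scale.

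Hspa5 encodes BiP, the main chaperone of the ER lumen. It was at 385, 331, 484, 522 and 553 CPM across the wild type against 358, 340, 317, 342 and 368 CPM in the knockout. The knockout libraries were close together, and wild type replicate 2 lay among them while replicates 3 to 5 lay far above. The log2 fold change was -0.40 ± 0.14 (edgeR adjusted p = 0.790) and ranged from -0.59 to -0.04 over the alternatives. Hsp90b1, the ER member of the HSP90 family, was at 283 and 343 CPM in wild type replicates 1 and 2 and 532, 535 and 569 CPM in replicates 3 to 5. Its knockout libraries lay at 424, 432, 282, 394 and 255 CPM, between those wild type levels or below. Its log2 fold change of -0.34 ± 0.22 became 0.08 among the 5 libraries below 0 on the first principal component.

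The remaining folding members had values between those of Dnajc3 and Txndc5. The BiP co-chaperones Dnajb11 (-0.25 ± 0.11) and Dnajc3 (-0.34 ± 0.17) and the exchange factors Hyou1 (-0.26 ± 0.19) and Sil1 (-0.21 ± 0.12) were all negative, as log2 fold changes with their SE. Pdia4, a further isomerase, was at -0.30 ± 0.13, and Canx, the membrane-bound partner of calreticulin, at -0.24 ± 0.14. P4hb, the founding isomerase and the most abundant member of the whole map per length at 573 TPM, was at 1423 ± 73.1 and 1259 ± 168 CPM (SD, n = 5 each, log2 fold change -0.18 ± 0.12). Knockout replicates 4 and 5, at 1430 and 1392 CPM, were within the wild type range. Only Txndc5 had a positive value (0.04 ± 0.12). Over the 18 folding members, the mean of the centred log2 CPM ran from -0.00 to 0.25 in the wild type libraries and from -0.20 to -0.04 in the knockout libraries. The folding median was -0.35 without wild type replicates 1 and 2, -0.31 among the 5 libraries above 0 on the first principal component and -0.15 among the 5 below, where 13 of 18 members were negative.

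**Figure D2:**
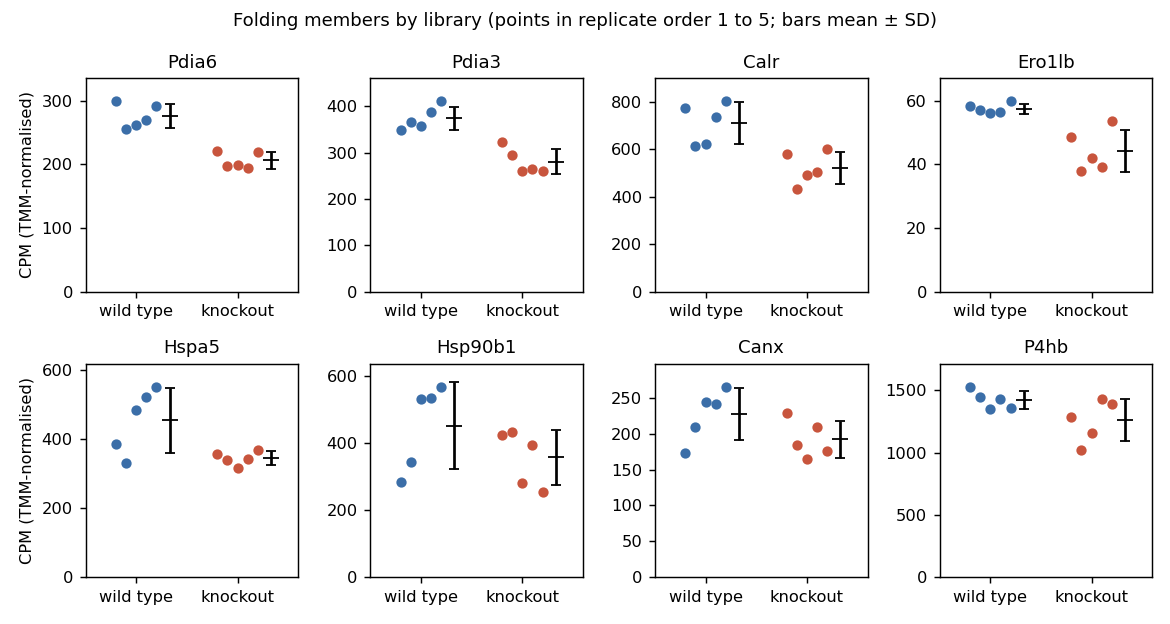
CPM (y axis, from 0) of 8 folding members in each library, wild type blue and knockout red, in replicate order, with mean ± SD bars (n = 5). Pdia6, Pdia3, Calr and Ero1lb show no overlap of the groups, while for Hspa5 and Hsp90b1 wild type replicates 1 and 2 lie well below replicates 3 to 5.

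**Figure D3:**
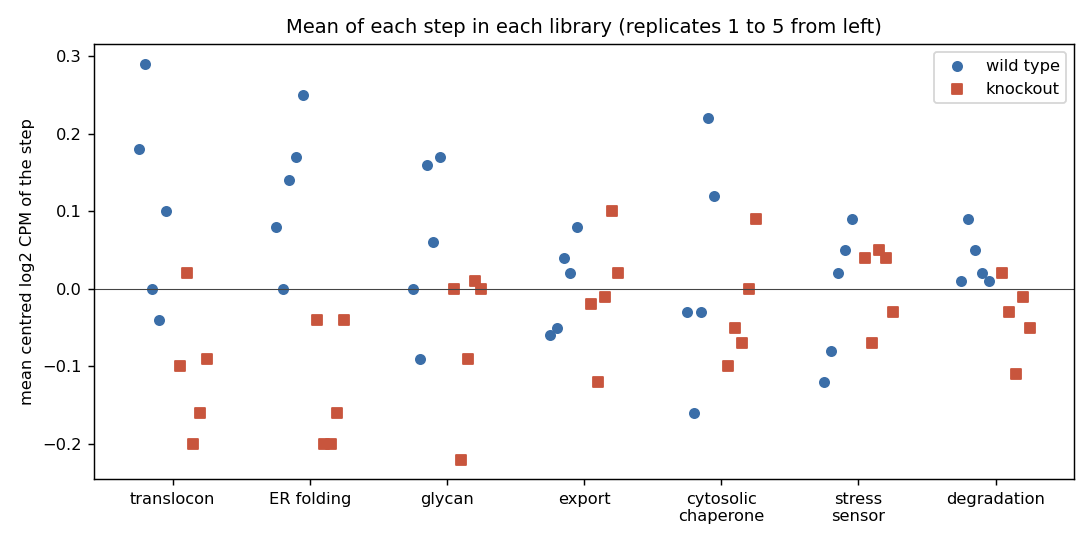
Mean of the centred log2 CPM of each step (y axis) in each library, wild type as blue circles and knockout as red squares, replicates 1 to 5 from left. In ER folding the wild type libraries (-0.00 to 0.25) lie above the knockout libraries (-0.20 to -0.04), and in the other steps they overlap.

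The promoters of some folding members hold a sequence feature that the choice of members did not use. The feature was already known from chaperone genes, so its frequency in this step is background and not independent support. The ER stress response element (ERSE), spelled CCAAT, any 9 bases and CCACG on either strand, is the site through which ATF6 and the splice product of Xbp1 are known to act on chaperone genes. It was searched in RefSeq promoter windows (GRCm38.p6, 250 bases before to 50 after each gene start), which were found for 137 of the members with a step. It occurred in 8 of 16 folding promoters (50%) and in 2 of 37 degradation promoters. The windows of the other 5 steps held no match. Among all 27025 genes with a window, 37 had a match (0.137%). A match is a description of letters and not evidence of binding.

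The 9 matches of Pdia6, Calr, Ero1lb, Hspa5, Dnajc3, Canx, Hsp90b1 and Derl3 are shown as examples. Of the tested members with a match only Syvn1, which had the smallest difference among them (-0.15), is not printed. Canx (-0.24) lay near the folding median (-0.26). Each is printed on the gene's strand with 20 bases on either side. The fixed letters are in capitals and the spacer between them in lower case. Where the element runs on the opposite strand it reads CGTGG first and ATTGG last.
Pdia6, chr12:17266471-17266529, plus strand: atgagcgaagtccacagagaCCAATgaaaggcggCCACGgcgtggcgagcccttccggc
Calr, chr8:84847055-84847113, minus strand: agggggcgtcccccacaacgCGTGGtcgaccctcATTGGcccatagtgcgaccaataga
Ero1lb, chr13:12565662-12565720, plus strand: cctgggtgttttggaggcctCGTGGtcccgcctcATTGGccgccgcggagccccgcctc
Hspa5, chr2:34772005-34772063, plus strand: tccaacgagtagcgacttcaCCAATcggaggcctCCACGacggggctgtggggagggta
Dnajc3, chr14:118937807-118937865, plus strand: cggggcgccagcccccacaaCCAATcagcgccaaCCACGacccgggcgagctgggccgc
Canx, chr11:50325780-50325838, minus strand: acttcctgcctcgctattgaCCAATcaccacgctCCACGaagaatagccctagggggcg
Hsp90b1, distal, chr10:86705618-86705676, minus strand: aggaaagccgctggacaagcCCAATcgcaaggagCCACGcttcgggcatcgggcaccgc
Hsp90b1, proximal, chr10:86705513-86705571, minus strand: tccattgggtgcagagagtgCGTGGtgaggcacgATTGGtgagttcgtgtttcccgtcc
Derl3, chr10:75893222-75893280, plus strand: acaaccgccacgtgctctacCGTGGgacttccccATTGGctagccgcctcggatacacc

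All 9 tested members with the element had a negative log2 fold change, from -1.49 (Derl3) to -0.15 (Syvn1), with a median of -0.38. The 120 tested members that had a window without it had a median of -0.07, and 87 of them were negative. Of all 10279 tested genes that had a window without it, 5689 were negative. Within folding, the median was -0.38 over the 7 tested members with the element and -0.18 over the 8 without. Pdia3 and Pdia4 were among those without a match, at -0.42 ± 0.11 and -0.30 ± 0.13. The mean centred log2 CPM of the 9 members was 0.13, 0.07, 0.37, 0.23 and 0.37 in wild type replicates 1 to 5 and 0.04, -0.31, -0.48, -0.20 and -0.21 in knockout replicates 1 to 5. Knockout replicate 1 lay just under wild type replicate 2 and the other knockouts lay far below. Over the 7 folding members with the element, which leave out Derl3 and Syvn1, the groups overlapped. Their mean was 0.00 in knockout replicate 1, against -0.03 and -0.02 in wild type replicates 1 and 2. The related element ERSE-II (ATTGG, any 1 base and CCACG, either strand) occurred in 2 member windows, those of Herpud1 and Dnajb11, and in 12 of all genes with a window (0.0444%). The Herpud1 match, in capitals, is shown because Herpud1 had the second lowest p of the degradation step.
Herpud1, chr8:94386357-94386407, plus strand: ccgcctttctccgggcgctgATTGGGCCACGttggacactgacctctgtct
The ATF4 element searched (TGATGNAA, either strand) was in 2.92% of the member windows and in 4.51% of genes with a window, and the UPRE (TGACGTGG, either strand) in 4.38% and 0.714%.

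**Figure D4:**
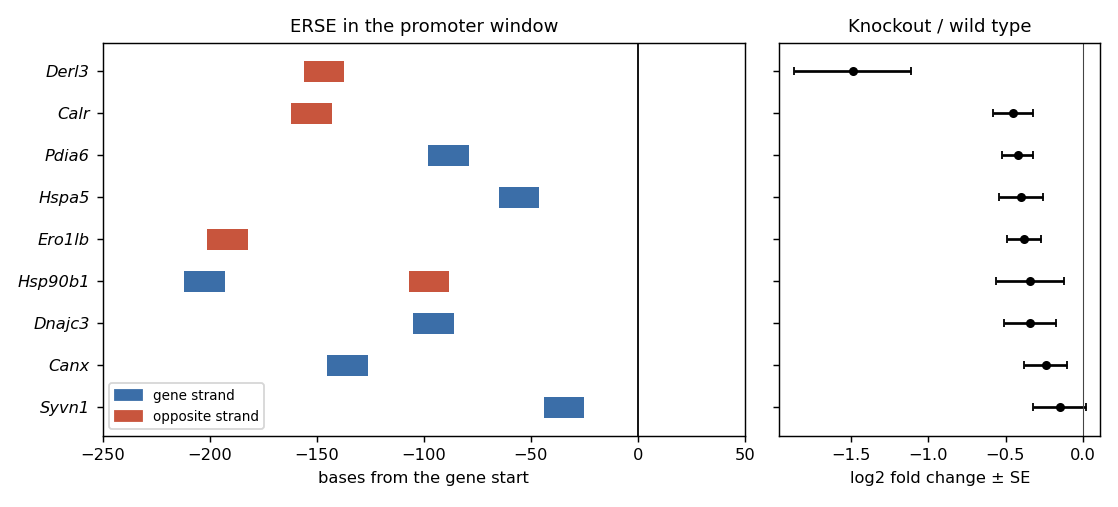
Left, position of the ERSE in the promoter windows of the 9 tested members that hold it, in bases from the gene start, blue on the gene's strand and red on the opposite strand. Right, log2 fold change of the same genes (knockout against wild type, bars SE), all of which are negative, from -1.49 for Derl3 to -0.15 for Syvn1.

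In the glycan step 18 of 21 members were negative (85.7%, against 55.3% of all genes). The lowest p belonged to Rpn1, a subunit of the oligosaccharyltransferase that attaches sugar chains, at 116, 108, 117, 121 and 141 CPM across the wild type against 111, 83.0, 92.5, 96.1 and 111 CPM across the knockout. Knockout replicates 1 and 5 lay inside the wild type range (log2 fold change -0.29 ± 0.12, edgeR adjusted p = 0.935). Other subunits of the same enzyme were at -0.24 ± 0.14 (Rpn2), -0.25 ± 0.15 (Stt3a, a catalytic subunit), -0.22 ± 0.13 (Ddost) and -0.15 ± 0.14 (Dad1). The second catalytic subunit Stt3b was at -0.06 ± 0.10. Uggt1, which re-tags misfolded glycoproteins for another round with calreticulin, was at 61.1 ± 8.25 and 49.8 ± 7.28 CPM (-0.30 ± 0.13, edgeR adjusted p = 1.0). Ganab and Prkcsh, the subunits of glucosidase II, were both at -0.13, with SE of 0.14 and 0.13. Edem1, which passes mannose-trimmed proteins to degradation, was at -0.14 ± 0.12. The trimming enzymes Mogs (0.06 ± 0.12) and Man1b1 (0.03 ± 0.12) and the subunit Tusc3 (0.11 ± 0.15) were positive.

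Of 12 export members, 1 was lower and 1 higher at an unadjusted p under 0.05 (16.7% together, against 4.82% of all genes). Sec31b, a little expressed isoform of the COPII outer coat (1.34 TPM), was at 3.51, 3.38, 4.16, 3.68 and 3.92 CPM across the wild type against 4.35, 5.16, 8.51, 4.91 and 5.26 CPM in the knockout. Every knockout library was higher, replicate 3 by far the most (log2 fold change 0.60 ± 0.19, edgeR adjusted p = 0.589). The main outer coat gene Sec31a, at 69.9 TPM, was at -0.03 ± 0.12. Sec23b, of the inner coat, was at 38.8 ± 3.86 and 32.3 ± 2.37 CPM (-0.26 ± 0.10, edgeR adjusted p = 0.920), with overlap. Sar1b, the GTPase that starts coat assembly and is needed for lipoprotein export, was at -0.17 ± 0.17, and its exchange factor Preb at 0.15 ± 0.10.

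Of 19 cytosolic chaperones in the map, none had an unadjusted p under 0.05, where 4.82% of all genes did. The most abundant, Hspa8 (540 TPM), was at 0.08 ± 0.13, and Hsp90ab1 (279 TPM) at -0.05 ± 0.13, both on the log2 scale. Dnaja1, a co-chaperone of Hspa8, was at -0.21 ± 0.18. The heat-inducible pair Hspa1a (-0.56 ± 0.54) and Hspa1b (0.10 ± 0.39) are near copies whose reads can be split.

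Stress sensors and effectors had no member at an unadjusted p under 0.05 either. Of 28 members 17 were negative (60.7%), near the 55.3% of all genes. Xbp1, whose messenger is spliced by IRE1 to give an activator of ER genes, was at 312, 318, 248, 193 and 217 CPM across the wild type against 309, 214, 337, 203 and 269 CPM in the knockout. The groups overlapped fully (log2 fold change 0.05 ± 0.18, edgeR adjusted p = 1.0), and gene counts do not separate the spliced form. Atf6, which encodes the sensor that is cleaved to an activator of chaperone genes, was at 63.1 ± 12.0 and 60.1 ± 9.24 CPM (-0.07 ± 0.15). Ern1 was at 26.4 and 24.0 CPM in wild type replicates 1 and 2, 45.1 to 59.8 CPM in replicates 3 to 5 and 21.6 to 42.8 CPM in the knockout (-0.24 ± 0.25). Eif2ak3 followed the same division, with 10.7 and 8.27 CPM in those 2 wild type libraries, 17.9 to 19.3 CPM in the other 3 and 11 to 18.3 CPM in the knockout (-0.15 ± 0.23).

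Downstream of PERK, Atf4, the transcription factor made when eIF2α is phosphorylated, was at 58.0 ± 11.3 and 60.6 ± 8.45 CPM (0.06 ± 0.15). Its target Ddit3, the pro-apoptotic factor CHOP, was at 7.55, 6.19, 2.58, 4.43 and 5.94 CPM across the wild type against 2.69, 6.12, 3.97, 4.46 and 4.14 CPM in the knockout (-0.32 ± 0.27), with full overlap. Ddit3 lies opposite the more abundant gene Mars (44.2 CPM on average), and strand is not stated, so its counts are less certain. Ppp1r15a, which reverses the phosphorylation, was at 0.07 ± 0.16. For these genes the interval of ± 2 SE was set beside the log2 fold change of -0.42 of Pdia6, the folding member with the lowest p. It includes that value for Ddit3, Ern1 and Eif2ak3 and leaves it out for Xbp1, Atf4, Atf6 and Ppp1r15a. The folding median of -0.26 lies inside the interval for Xbp1 and Atf6 as well, and near its edge for Atf4 and Ppp1r15a. Whether these genes share the difference of the folding members was not tested. Map2k7, a kinase of the JNK branch, is listed under 2 identifiers, at 0.67 ± 0.38 and -0.01 ± 0.13, and its reads may be split between them.

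In degradation 30 of 43 members were negative (69.8%, against 55.3% of all genes). An unadjusted p under 0.05 was found for 2 (4.65%), a share near the 4.82% of all genes. Derl3, a derlin of the channel through which misfolded proteins leave the ER, had the largest difference of any member. It was at 12.7, 13.6, 12.8, 5.21 and 6.86 CPM across the wild type against 7.04, 2.97, 1.33, 3.67 and 3.10 CPM in the knockout. Knockout replicate 1 lay above wild type replicates 4 and 5 and the other knockouts lay below all wild type libraries. The log2 fold change was -1.49 ± 0.38 (edgeR adjusted p = 0.327), and ranged from -2.38 among the 5 libraries below 0 on the first principal component to -0.62 among the 5 above. Its relatives Derl1 and Derl2, several times more abundant per length (42.2 and 50.2 against 7.20 TPM), were at -0.05 ± 0.12 and -0.25 ± 0.21.

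Derl3 is also abundant in plasma cells and in the exocrine pancreas. Of 6 tested plasma and B cell markers 4 were negative (median log2 fold change -0.23). Their summed level, over 9 markers, was 20.8 to 39.8 CPM across the wild type against 22 to 30.3 CPM in knockout libraries, and Tnfrsf17 was at 0 in every wild type library. Of 10 pancreatic markers 2 could be tested, and they went in opposite directions. Cela2a was positive (0.78 ± 0.48) at a low level, with group means of 0.528 (wild type) and 0.891 CPM (knockout). Cela1 was negative (-0.67 ± 0.31, edgeR adjusted p = 1.0). Cela1 was at 60.5, 53.9, 28.0, 14.6 and 24.7 CPM across the wild type and at 18.8 to 27.1 CPM in the knockout. It was highest in wild type replicates 1 and 2, and Derl3 in wild type replicates 1 to 3. The sum of the list, 15 to 61.9 CPM across the wild type against 19.7 to 28.3 CPM in the knockout, was mostly Cela1. The highest group mean among the untested markers was 0.196 CPM (Amy2a5, knockout), and Prss1 was at 0 throughout. The part of these cells in the Derl3 result was not tested.

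Herpud1, a membrane protein that organises the degradation complex, was at 447, 328, 408, 426 and 487 CPM across the wild type against 353, 307, 254, 315 and 396 CPM in the knockout. Knockout replicates 1 and 5 overlapped the wild type range (log2 fold change -0.37 ± 0.14, edgeR adjusted p = 0.913). The core ligase pair Syvn1 and Sel1l was at -0.15 ± 0.17 and -0.16 ± 0.17, and Vcp, the ATPase that pulls substrates out, at -0.09 ± 0.14. The ubiquitin-conjugating enzyme Ube2d3, among the 3 most abundant members of the step, was at -0.06 ± 0.10, and Skp1a, a ligase adaptor, at -0.00 ± 0.14. The largest positive values were those of Ube2d1 (0.24 ± 0.12), a conjugating enzyme, and Ube4b (0.21 ± 0.15), a chain-elongating ligase.

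Outside the map, a list of 51 further genes of ER folding, signal peptide handling, cargo traffic and the unfolded protein response was measured. Of these 40 were negative (78.4%, against 55.3% of all genes), with a median log2 fold change of -0.13. At an unadjusted p under 0.05, 2 were lower and 1 was higher, and none passed over all genes. These 3 make 5.88% of the list, near the 4.82% of all genes. Hspa13, a BiP relative, was at 24.2 ± 3.85 and 18.3 ± 0.787 CPM (-0.41 ± 0.12, edgeR adjusted p = 0.501). Erp44, which retains unassembled proteins by their thiols, was at -0.24 ± 0.11, and Sec16b, an organiser of exit sites, at 0.26 ± 0.11. The secreted ER stress proteins Manf (-0.24 ± 0.27) and Creld2 (-0.18 ± 0.23) and the BiP partner Sdf2l1 (-0.48 ± 0.28) varied more between libraries. Trib3 and Chac1, targets of the ATF4 branch, were at 0.21 ± 0.19 and 0.02 ± 0.28.

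The division of the libraries went with the deposited gene length among the members. In wild type, replicates 1 and 2 minus replicates 3 to 5 gave -0.81 for Hsp90b1, -0.72 for Sec63 and -1.02 for Ern1 on the log2 CPM scale, and 0.93 for Sec61b and 1.01 for Ssr4. Across the 154 members with a step, this difference had a Spearman rho of -0.57 with the deposited gene length, and of -0.53 across all 13619 genes tested, which share the same libraries. Single members departed from the trend, such as Ssr1 (9306 bases, 0.27) and Derl2 (4369 bases, 0.80). The corresponding difference within the knockout had a rho of -0.31 over the members. The genotype difference itself had a rho of -0.02 with length over the members and of 0.03 over all genes. Over the 18 folding members the rho with length was -0.40 for the wild type difference, 0.23 for the knockout difference and 0.35 for the genotype difference. Over the 13 translocon members the same values were -0.77, -0.79 and -0.03. Pdia6, Calr and Ssr3 lay near 0 in the wild type difference. The part of the division in the genotype values of single members was not tested.

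**Figure D5:**
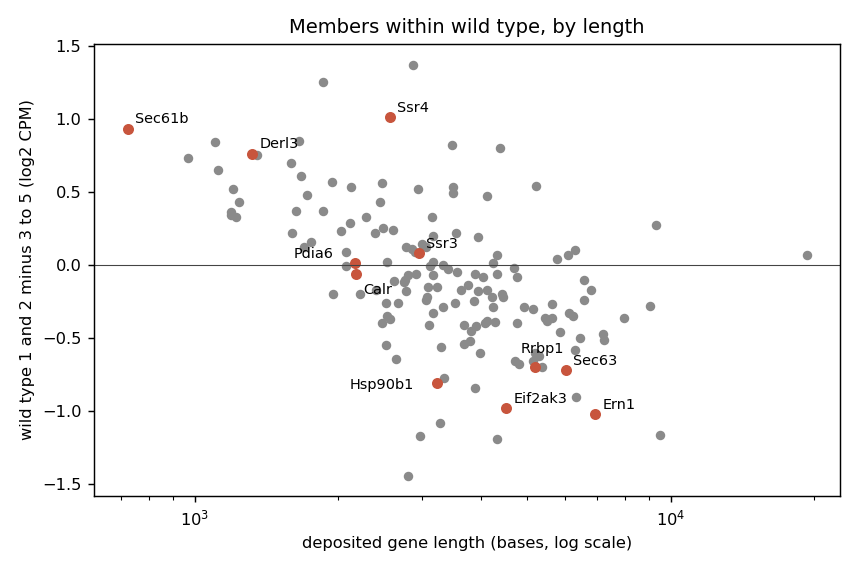
Difference within wild type, replicates 1 and 2 minus replicates 3 to 5 (log2 CPM, y axis), of the 154 tested members against the deposited gene length (bases, log scale), with 11 members in red and named. Short members such as Sec61b (0.93) tend to lie above 0 and long members such as Ern1 (-1.02) below, with Pdia6, Calr and Ssr3 near 0.

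Markers of other liver cells differed in how far they leaned, beside 55.3% of all genes that were negative and a median of -0.02. All 8 stellate and fibroblast markers were negative (median log2 fold change -0.41), with a summed level of 163 to 305 CPM across the wild type against 155 to 244 CPM in the knockout. Cholangiocyte markers were negative in 4 of 5 (median -0.58, sum 38.7 to 123 and 21.4 to 49.7 CPM). Kupffer cell markers were negative in 5 of 7 (median -0.02, sum 296 to 380 and 305 to 377 CPM), endothelial markers in 5 of 5 (median -0.11, sum 150 to 226 and 158 to 220 CPM), and neutrophil and T cell markers in 3 of 3 tested (median -0.45, sum 3.50 to 8.07 and 2.83 to 5.03 CPM). Of 5 hepatocyte markers 4 were negative (median -0.18, sum 82154 to 100408 and 72924 to 86579 CPM). No marker in these lists was at 0 in all libraries. The part of other cell types in the results was not tested.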

How the data were processed

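The tools named in the submitters' processing notes are fastp, HISAT and RSEM, and the build is GRCm38.p5. Their settings and strand handling were not found. The authors deposited RSEM's estimated counts and TPM for each library. Estimated counts were rounded to whole numbers (7.68% were not whole). Their own log2 fold change and p-value are in the deposited table too and were not used. The deposited TPM served to compare levels between genes. Wild type columns carry another abbreviation (CON) and were matched to the titles by number. Rows without a gene (4) were left out, and 26 of 27 symbols that a spreadsheet had turned into dates were restored.

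Genes passing filterByExpr (13619) were tested for genotype with edgeR 4.0.16 in R 4.3.3 (TMM, quasi-likelihood, robust), with Benjamini-Hochberg adjustment over all of them and a threshold of 0.05. SE come from the F statistic. The test was tried on simulated data. A count of 3 equals 0.111 to 0.146 CPM before TMM scaling, which the other CPM values include. This covers counting error only. The labels do not say that samples came from separate animals, so p-values measure the spread between samples. Alternatives were other scalings and filters, DESeq2 1.42.0, limma 3.58.1, a replicate block and left-out libraries. Members, lists and steps were chosen with earlier results of these data known. Named members were the core members of each step, those with the smallest p under 0.05 and the 3 most abundant per step, and others in the text were chosen after their values were seen. A search for C-terminal retrieval signals was not run.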

Additional observations from a re-analysis of the deposited data

Results flagged for a closer look

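Among the named genes, 2 groups of 5 libraries had 1 library far from the other 4, out of 114 groups examined, where chance gives about 1 in 20. Ddost was at 102 CPM in wild type replicate 1, while replicates 2 to 5 ranged from 69.4 to 76.0 CPM. Sec31b was at 8.51 CPM in knockout replicate 3, while the remaining 4 knockouts ranged from 4.35 to 5.26 CPM.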

How the results depend on the processing

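Beside 18 genes and 0 members called, DESeq2 called 101 genes and 4 members, and limma on TPM (pseudocount 0.5) 10 genes. Leaving out 1 library each gave 6 to 21 genes, and 8 to 21 members lower at an unadjusted p under 0.05, against 16 (10.4%, and 2.25% of all genes). That member count was 4 by library size only (2.6%, against 1.04% of all genes), 28 by limma-voom (18.2%, against 4.6%) and 2 by limma on TPM (1.3%, against 0.786%). By library size only and on TPM the members' median was 0.01 (library size) and 0.04 (TPM) and 72 and 66 members were negative, against -0.08 and 114. The median of all genes was then 0.07 in both. Of the alternatives chosen after seeing the data, leaving out wild type replicates 1 and 2 gave 10 genes and 29 members (18.8%, against 6.42% of all genes). The libraries above 0 on the first component gave 4 genes and 31 members (20.1%, against 4.81%). Those below 0 gave 15 genes and 13 members (8.44%, against 4.04%).

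Some log2 fold changes changed sign. Upper quartile scaling gave 0.01 for Skp1a. Library size only gave Hsp90ab1 0.03, Ube2d3 0.03, Derl1 0.05, Skp1a 0.08, Sec31a 0.05, Lman1 0.03 and Atf6 0.01. Limma-voom gave Derl1 0.03 and Ssr4 0.03. Limma on TPM gave Hsp90ab1 0.05, Vcp 0.01, Ube2d3 0.15, Derl1 0.06, Skp1a 0.09, Sec31a 0.07, Lman1 0.03 and Atf6 0.04. Without wild type replicates 1 and 2, Derl1 was at 0.09, Skp1a 0.06, Sar1b 0.06, Dad1 0.07, Sec61b 0.06 and Ssr4 0.28. Libraries above 0 gave Hspa8 -0.13, Vcp 0.03, Ube2d3 0.00, Derl1 0.01, Skp1a 0.10 and Sec31a 0.01. Libraries below 0 gave Dnaja1 0.02, Hsp90ab1 0.11, Sel1l 0.10, Syvn1 0.09, Sec31a 0.07, Hsp90b1 0.08, Ero1l 0.04, Lman1 0.01, Ern1 0.45, Eif2ak3 0.37, Atf6 0.13, Atf4 -0.08, Bax -0.20 and Xbp1 -0.18. Leaving out 1 library gave -0.10 to 0.00 for Derl1, -0.11 to 0.07 for Skp1a, -0.02 to 0.14 for Atf4, -0.05 to 0.21 for Bax, -0.05 to 0.13 for Xbp1, -0.13 to -0.00 for Hsp90ab1, -0.09 to 0.02 for Sec31a and -0.02 to 0.13 for Hspa8. The cause was not tested.

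Replicate numbers showed no clear pairing of the samples. Deviations of same-numbered libraries correlated from -0.409 to 0.426, and 2 of 5 numbers matched best with themselves. These values cannot tell whether the samples were paired by design. With a replicate block 26 genes and 0 members were called.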

Other observations

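Outside the map, 9 tested genes had an ERSE in their promoter window. Of these 7 were negative, with a median log2 fold change of -0.07. They ran from Acnat2, an acyltransferase gene (-1.22 ± 0.22), and Acacb, an acetyl-CoA carboxylase (-0.50 ± 0.37), to Spats2l (0.50 ± 0.26). The 10279 tested genes whose window held no match had a median of -0.02.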
